A study of Bos taurus with 8 samples.

Results

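Interferon regulatory factors (IRFs) and interferon-stimulated genes were followed in bovine blastocysts produced in vitro or recovered in vivo. The 9 genes were taken by their symbol in the array's platform annotation: the transcription factor genes IRF3, IRF7, IRF5, IRF1, IRF2 and IRF9, and the interferon-stimulated genes ISG15, MX1 and LGALS3BP. They had 11 probes among the 43795 on the array, and the 9 symbols stand among 15229 in the annotation. All 9 had a probe, but only 5 genes with 6 probes gave enough signal to be tested.

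RNA from both kinds of blastocyst was hybridised together on 8 two-colour arrays. The in vitro embryos came from oocytes of 2 to 6 mm follicles of slaughterhouse ovaries, matured, fertilized and cultured in vitro and collected at 168 h after fertilization. Their source name instead says they were produced after OPU (ovum pick-up, oocyte collection from live cows), and the labels do not settle which holds. The in vivo embryos came from Holstein females that had follicles over 8 mm aspirated and were given 400 mg FSH and a prostaglandin analogue. They were inseminated 12 and 24 h after oestrus with the pooled semen that also served for in vitro fertilization. Their embryos were labelled day 7 and were flushed from the uterus, at 7.5 days by the protocol text. Oocyte source, hormone treatment, in vitro maturation and fertilization, embryo culture and the stated collection time go with the contrast and cannot be told apart. There were 4 biological replicates of each kind, each pair hybridised once per dye orientation. Slide 58 carried the in vitro RNA in Cy5, and slide 61 carried the in vivo RNA in Cy5. How many embryos were pooled per replicate is not stated in the labels.

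Interferons are secreted proteins that cells make when they sense viral nucleic acid. IRF3, IRF7 and IRF5 are the factors that sensors activate to switch on interferon and cytokine genes, and secreted interferon acts through its receptor, JAK kinases and a complex that holds STAT2 and IRF9 to induce genes such as MX1 and ISG15. In ruminants the trophectoderm of the embryo itself secretes a type I interferon, interferon tau, which signals pregnancy to the mother and induces ISG15 and MX1 in the uterus. The roles given for single genes below are those known mostly from human and mouse cells.

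Median spot intensity over all probes was 87.3 to 187 in Cy5 and 110 to 267 in Cy3. A probe was called detected in a channel when its raw intensity passed the level below which 95% of that channel's negative controls lay, between 76.1 and 229, and a gene was tested when detected on all 8 arrays in at least 1 kind of embryo. Replicate 2 stood apart. Between it and any other replicate the log2 ratios had a correlation over probes of 0.386 to 0.459, against 0.804 to 0.822 among the other 3, so the result of each tested member gene is also given without it. Markers of the embryo were present: all 10 trophectoderm genes and all 6 inner cell mass genes looked up were tested, with the brightest being KRT8 and KLF4. Each ratio is the log2 value in vitro minus that in vivo, given as the mean with limma's SE over 4 replicates. Adjusted p-values are limma's, over all 10188 genes tested unless the probe fit is named, and a gene is called at an adjusted p under 0.05.

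Of the 5 tested genes, IRF5 was lower in vitro and LGALS3BP was higher, while IRF3, IRF7 and IRF1 did not pass the test. Among all tested genes 21.8% were called, 9.23% as higher and 12.6% as lower in vitro. A count of 1 higher and 1 lower among 5 genes is too small to be set apart from those shares. Of the 6 tested member probes, 2 passed with p-values adjusted over probes, 1 of IRF5 and that of LGALS3BP, where 15.8% of all tested probes did. The median log2 ratio was -0.13 over the 5 genes and -0.01 over all tested genes. IRF5 and LGALS3BP also kept 1 direction on all 8 arrays, as 22.8% of tested genes did, and their levels did not overlap between the kinds of embryo, as in 23.2% of tested genes. On arrays of whole embryos, a change in the number of cells that express a gene and a change in RNA per cell cannot be told apart.

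**Figure D1:**
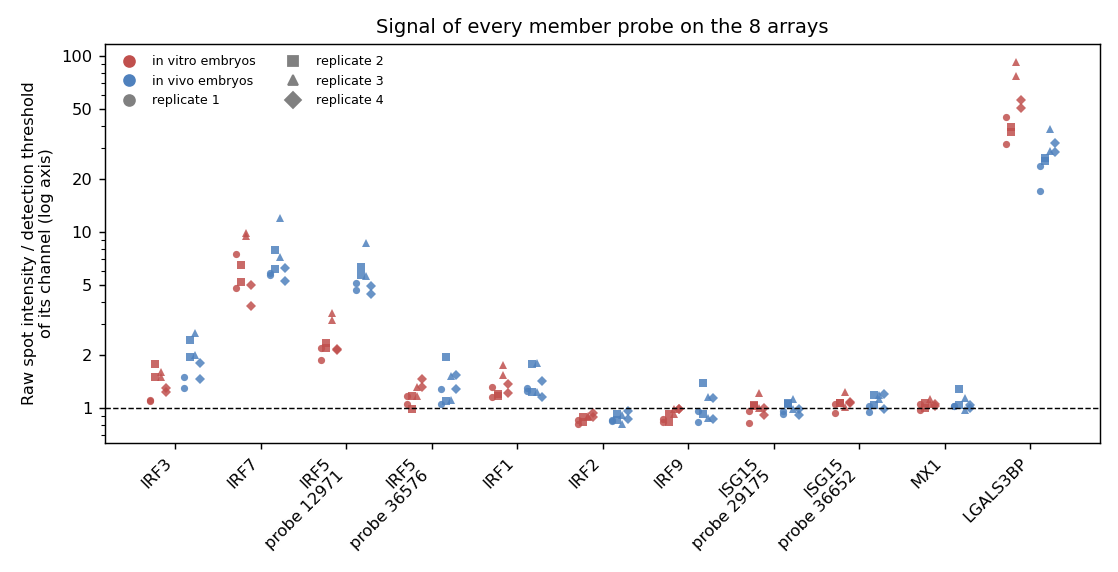
Raw spot intensity of each of the 11 probes divided by the detection threshold of its channel (log axis), for in vitro (red, left) and in vivo embryos (blue, right) on 8 arrays, with symbols for replicates. LGALS3BP lies 17.2 to 92.5 times above the threshold, whereas IRF2, IRF9, ISG15 and MX1 lie around the dashed line at 1.

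IRF3 and IRF7 encode the factors most directly tied to the induction of type I interferon genes, and neither passed the test. IRF3 had normalized log2 levels of 6.93, 7.78, 7.23 and 7.20 in vitro in replicates 1 to 4, against 7.36, 7.73, 7.87 and 7.63 in vivo. In replicates 1, 3 and 4 it was lower in vitro, in replicate 2 it was 0.05 higher on the log2 scale, and the groups overlap. Its log2 ratio was -0.36 ± 0.12 (adjusted p = 0.106), and 7 of 8 arrays were lower in vitro. Without replicate 2 the ratio was -0.50 (adjusted p = 0.00907). With the replicate number as a block over the 8 arrays it was -0.36 (adjusted p = 0.0466 in limma). The signal was small: raw intensities were 1.09 to 1.79 times the detection threshold in vitro and 1.30 to 2.66 times in vivo.

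IRF7, the factor that is itself induced by interferon and amplifies the response, gave a clear signal at 3.82 to 9.83 times the threshold in vitro and 5.28 to 12.0 times in vivo. Its log2 levels were 9.69, 9.96, 9.59 and 9.17 in vitro and 9.88, 9.46, 9.91 and 9.68 in vivo. Replicate 2 had the highest of the 4 levels in vitro and the lowest of the 4 in vivo, while the other 3 pairs were lower in vitro. The log2 ratio was -0.13 ± 0.18 (adjusted p = 0.695), with a 95% interval of -0.58 to 0.33 that leaves room for a change either way. Without replicate 2 it was -0.34 (adjusted p = 0.0348), and without replicate 4 it was 0.000803 (adjusted p = 0.999). IRF7 also differed between the slides, at -0.32 on slide 58 and 0.07 on slide 61 (slide difference -0.38, adjusted p = 0.000282 over tested probes in limma). Smaller slide differences were found for IRF5 on EMBV3_12971 (0.13), LGALS3BP (-0.13) and IRF1 (-0.16), with adjusted p of 0.0365, 0.0413 and 0.0325 in the same test. IRF3 and the other IRF5 probe did not pass it (adjusted p = 0.0735 and 0.103). Each slide has 1 dye orientation, so an effect of the slide and one of the dye cannot be told apart.

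IRF5, which acts below Toll-like receptors and MYD88 to induce inflammatory cytokine genes, had 2 probes that gave different sizes. On EMBV3_12971 the log2 levels were 8.01, 8.40, 8.09 and 8.06 in vitro, against 9.58, 9.18, 9.46 and 9.34 in vivo. Every in vitro value lay below every in vivo value, and replicate 2 had the smallest gap. The log2 ratio was -1.25 ± 0.14, a 2.38-fold lower level in vitro (adjusted p = 0.00728), with a 95% interval of -1.61 to -0.89. By replicate the ratio was -1.56, -0.78, -1.38 and -1.28. It was -1.19 on slide 58 and -1.32 on slide 61. Leaving out each replicate in turn gave ratios between -1.41 and -1.15, the lowest of them without replicate 2, and adjusted p between 0.00341 and 0.0450. Only 83 of the 10188 tested genes had a lower ratio.

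The other IRF5 probe, EMBV3_36576, showed almost none of this difference. Its log2 levels were 7.00, 6.95, 7.05 and 7.35 in vitro and 7.05, 7.22, 7.07 and 7.42 in vivo, each pair a little lower in vitro, with overlapping groups. The ratio was -0.10 ± 0.07 (adjusted p = 0.418 over tested probes in limma), and its 95% interval of -0.28 to 0.07 does not reach the size seen on the first probe. Its raw intensity was only 0.993 to 1.47 times the detection threshold in vitro and 1.06 to 1.95 times in vivo. EMBV3_12971 read 1.89 to 3.45 times and 4.48 to 8.72 times. So near to background a change on EMBV3_36576 could be understated, and its interval does not bound the change in IRF5 RNA. The mean of both probes gave -0.68 (adjusted p = 0.00633). The probe sequences were not used here, so whether both probes match IRF5 transcripts was not checked, and the IRF5 result is that of EMBV3_12971. Of 605 called genes with several tested probes, 501 (82.8%) had some other tested probe that was not called. That share is per gene and grows with the number of probes. It cannot be set against the 15.8% of all tested probes that were called. That count takes calls only. How often the ratios of a gene's probes differ as much in size as those of IRF5 was not measured.

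IRF5 is also expressed in monocytes and other immune cells, so the 17 blood and immune markers with a probe were examined beside it. Of the 6 tested, limma called 0, also at an unadjusted p under 0.05, and their median log2 ratio was 0.00. The summed linear level of the 17 was 1809 to 2166 in vitro and 1914 to 2175 in vivo, which overlap. Of the 17, 11 did not meet the rule for testing and still add background signal to the sum. It therefore cannot show whether a small share of such cells differed. The monocyte and lymphocyte genes CD79A, CSF1R, ITGAM, ITGB2 and TYROBP were not detected on any array. The brightest tested marker, PTPRC, gave 0.10 ± 0.10 (adjusted p = 0.524). Of the 4 tested oviduct and uterus genes, 1 was lower in vitro, MUC1 of the epithelial surface, at -0.45 ± 0.10 (adjusted p = 0.0370). The summed level of the 8 oviduct and uterus markers with a probe was 889 to 989 in vitro and 946 to 1181 in vivo, and ESR1 was not detected on any array. As 4 of the 8 markers were not tested, background limits that sum in the same way. PAX8, the brightest of these, gave -0.11 ± 0.17 (adjusted p = 0.726). Of the 7 tested cumulus and granulosa genes 0 were called in limma, and 1 was lower in vitro at an unadjusted p under 0.05. Their median log2 ratio was -0.22. Of the 9 with a probe, 3 were detected on all 8 arrays in vitro and 7 in vivo. The summed level of the 9 was 1110 to 1476 in vitro and 1342 to 1524 in vivo, which overlap. INHBA, the brightest, was at -0.25 ± 0.21 (adjusted p = 0.487). The part of other cells in the IRF5 result was not tested further.

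IRF1 and IRF2 are an opposed pair, IRF1 an interferon-induced activator and IRF2 mostly a repressor of the same sites. IRF1 had log2 levels of 7.19, 7.12, 7.36 and 7.16 in vitro and 7.23, 7.23, 7.25 and 7.24 in vivo, so the in vivo values lay inside the in vitro range. The ratio was -0.03 ± 0.06 (adjusted p = 0.795), with a 95% interval of -0.19 to 0.13, and it was -0.01 without replicate 2. By slide it was -0.11 on slide 58 and 0.05 on slide 61. The raw intensity was 1.15 to 1.76 times the threshold in vitro and 1.16 to 1.80 times in vivo, near enough to background that a change could be understated. IRF2 was not detected on any array in either kind of embryo, with intensities of 0.810 to 0.942 times the threshold in vitro and 0.807 to 0.962 times in vivo. IRF9, the DNA-binding subunit of the complex with STAT2, was detected on 0 of 8 arrays in vitro and 3 of 8 in vivo, at 0.833 to 0.992 and 0.832 to 1.39 times the threshold. All 3 detections of IRF9 were on slide 58, where the in vivo RNA was in Cy3, and none on slide 61. No difference can be given for either gene at this signal.

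The best known interferon-stimulated genes were at the edge of detection in both kinds of embryo. ISG15 encodes a ubiquitin-like protein that is joined to other proteins after interferon treatment. Its probe EMBV3_29175 was detected on 5 of 8 arrays in vitro and 3 of 8 in vivo, and EMBV3_36652 on 7 and 6 of 8. Raw intensities were 0.820 to 1.21 times the threshold in vitro and 0.912 to 1.13 times in vivo on the first, and 0.935 to 1.23 and 0.953 to 1.20 times on the second. MX1, a dynamin-like antiviral GTPase, was detected on 6 of 8 arrays in both, at 0.978 to 1.12 times the threshold in vitro and 0.978 to 1.28 times in vivo. The log2 levels of MX1 were 6.76, 6.75, 6.79 and 6.66 in vitro and 6.66, 6.87, 6.72 and 6.63 in vivo. Neither gene met the rule for testing, and a difference between the embryos was not detectable at this signal.

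**Figure D2:**
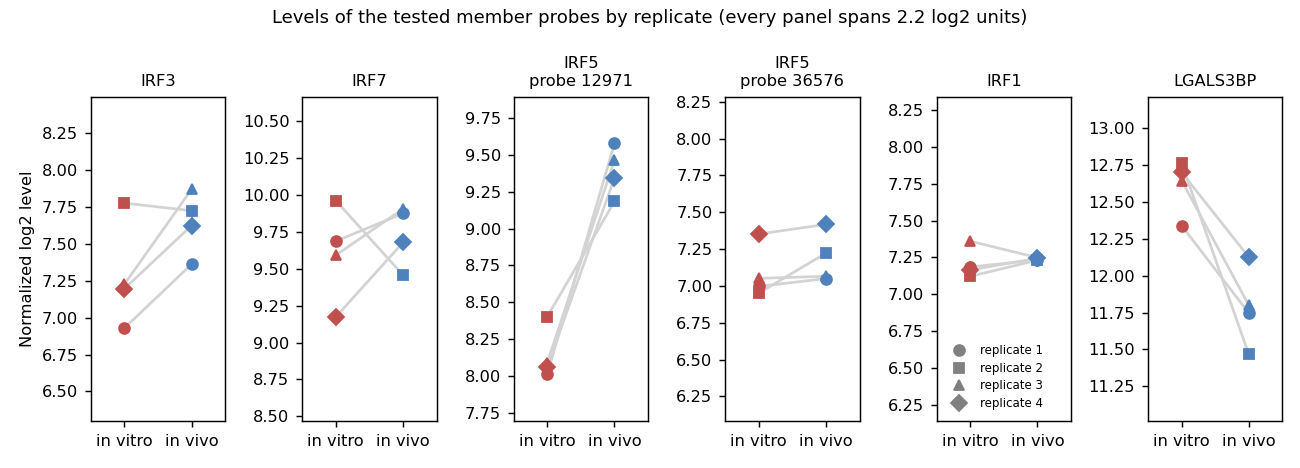
Normalized log2 level (y axis) of the 6 tested probes in vitro (left) and in vivo (right), with gray lines joining the pair of each replicate and every panel spanning the same range. IRF5 on EMBV3_12971 is lower in vitro in all 4 pairs and LGALS3BP is higher in all 4.

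LGALS3BP, a secreted glycoprotein that binds galectins and is induced by interferon, was the member that rose. Its log2 levels were 12.34, 12.76, 12.65 and 12.70 in vitro, against 11.75, 11.47, 11.80 and 12.13 in vivo. Every in vitro value lay above every in vivo value, and replicate 2 had the widest gap, with the highest of the in vitro levels and the lowest of the in vivo levels. The log2 ratio was 0.83 ± 0.14, or 1.78-fold (adjusted p = 0.0177), with a 95% interval of 0.47 to 1.19. By replicate it was 0.59, 1.30, 0.85 and 0.58, and by slide 0.77 on slide 58 and 0.89 on slide 61. Raw intensities of 5402 to 7271 in vitro and 3070 to 4185 in vivo stood far from the background and from the brightest spots of the arrays, 38342 to 40155. Without replicate 2 the ratio was 0.67 (adjusted p = 0.00645). Without replicate 1, 3 or 4 it was 0.91, 0.82 and 0.91 and no longer passed (adjusted p = 0.0572, 0.0774 and 0.0557). Of the 10188 tested genes, 242 had a higher ratio.

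**Figure D3:**
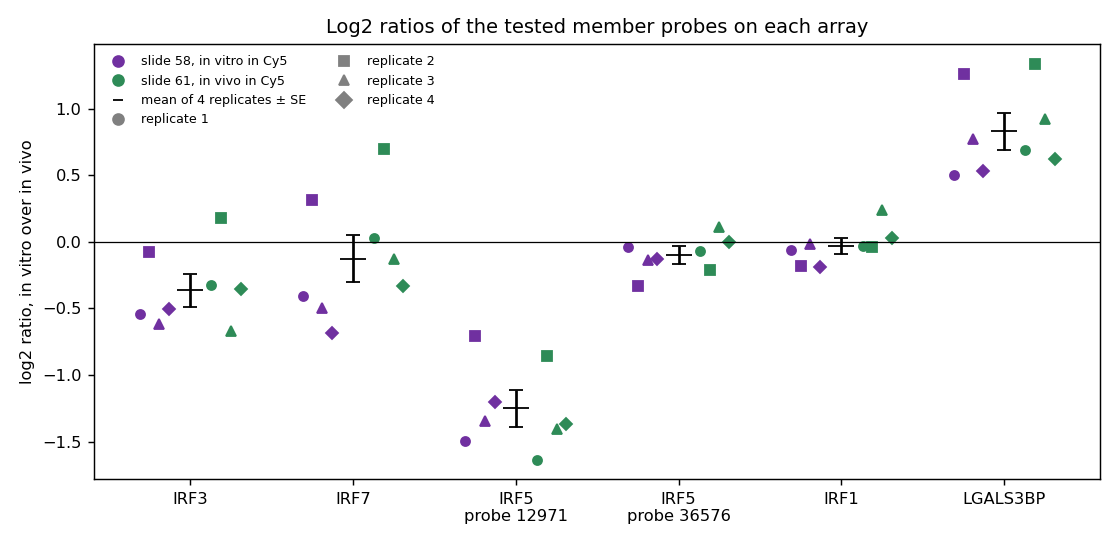
Log2 ratio (y axis) of the 6 tested probes on each array, purple for slide 58 (in vitro RNA in Cy5) and green for slide 61 (in vivo RNA in Cy5), with symbols for replicates and black bars for the mean ± SE. Replicate 2 (squares) has the highest ratio of the 4 replicates on both slides for IRF3, IRF7, IRF5 on EMBV3_12971 and LGALS3BP.

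Replicate 2 had the highest ratio of the 4 replicates in IRF3, IRF7, IRF5 on EMBV3_12971 and LGALS3BP. The 2 arrays of replicate 2 had ratios of 0.32 and 0.69 for IRF7 and of 1.26 and 1.34 for LGALS3BP, so the shift was there in both dye orientations. IRF5 in replicate 2 read -0.71 and -0.85. For the other IRF5 probe and for IRF1 replicate 2 had the lowest ratio of the 4. What set this replicate apart was not tested.

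The genes with ratios most like IRF5 over the 8 arrays were LIG1, DNA ligase I of replication and repair, CDK9, the kinase that releases paused RNA polymerase, and the splicing factor gene SF3B2. Their root mean square differences from IRF5 were 0.123, 0.193 and 0.204, out of 9434 genes compared. The genes most like LGALS3BP were ISCA2 of iron-sulfur cluster assembly (0.0905), the sialomucin gene CD164 (0.150) and MAL2, which encodes a membrane trafficking protein (0.163). These measures over 8 arrays are descriptions only.

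Upstream of the members, the tested interferon ligands and receptor chains did not pass the test by the brightest probe of each gene. IFNT, the interferon tau gene, was detected on all 8 arrays in both kinds of embryo. Its log2 ratio was -0.35 ± 0.23 (adjusted p = 0.358), with replicate values of 0.20, -1.04, 0.05 and -0.61, and it was -0.12 without replicate 2. On slide 58 it was -0.58 and on slide 61 -0.13, neither past the threshold (adjusted p = 0.0901 and 0.720). The IFNT slide difference was -0.45 (adjusted p = 0.000525 over tested probes in limma). Trophectoderm, the tissue that makes interferon tau, had 1 of 10 marker genes higher and 4 lower in vitro, with a median log2 ratio of -0.71. Their summed linear level was 51697 to 78158 in vitro and 88659 to 101500 in vivo, without overlap. The brightest, KRT8, was at -1.01 ± 0.27 (adjusted p = 0.0567). Of the 6 inner cell mass genes 0 were higher and 2 lower, 0 and 2 also at an unadjusted p under 0.05 in limma, with a median log2 ratio of -0.17. Their summed linear level was 14618 to 17034 in vitro and 19325 to 26529 in vivo, also without overlap, while the brightest, KLF4, was at 0.30 ± 0.14 (adjusted p = 0.202). The part of tissue makeup in these results was not tested.

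Of 8 ligand genes with a probe, 2 were tested, IFNT and IFNAC, and limma called 0, also at an unadjusted p under 0.05. IFNAC was at -0.05 ± 0.06 (adjusted p = 0.667), the mean of opposed slides, at -0.40 on slide 58 and 0.31 on slide 61. Its slide difference was -0.71 (adjusted p = 0.00119 over tested probes in limma). On single slides 1 ligand was called lower on slide 58 and 1 higher on slide 61. The receptor chain genes IFNAR1 and IFNAR2 gave 0.45 ± 0.20 (adjusted p = 0.190) and 0.24 ± 0.14 (adjusted p = 0.304), and IFNAR2 was detected on 6 of 8 arrays in vivo. Without replicate 2 they were at 0.21 and 0.15 (adjusted p = 0.150 and 0.499). The mean of its probes gave 0.24 for IFNAR1. IFNAR2 was at 0.0849 with no background correction and at 0.69 in the authors' deposited log2 ratios. IL10RB of the receptor list, named after its values were seen, was at 0.67 ± 0.20 on its brightest probe (adjusted p = 0.0798). Its probe EMBV3_17036 was at 0.89 ± 0.12 (adjusted p = 0.0142 over tested probes in limma). On EMBV3_23923 IL10RB was at 0.05 ± 0.06 (adjusted p = 0.691 over tested probes in limma). STAT2, the partner of IRF9, was lower in vitro on all 8 arrays at -0.45 ± 0.12 but did not pass over the 4 replicates (adjusted p = 0.0622). With the replicate block it did (adjusted p = 0.0189 in limma), as it did on slide 58 alone (adjusted p = 0.0386). The block takes its degrees of freedom from 8 arrays. In the other 11 of 13 alternatives STAT2 did not pass, and without replicate 2 it was at -0.37 (adjusted p = 0.0938).

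Of the 14 tested receptor and JAK-STAT genes 2 were higher and 0 lower, with 4 and 2 at an unadjusted p under 0.05 in limma and a list median of 0.08. Among all tested genes 9.23% were called higher and 12.6% lower, and no list count was tested against these shares. PTPN11, a phosphatase that acts on this pathway, rose by 0.63 ± 0.15 (adjusted p = 0.0446), and JAK2, a kinase of the interferon gamma receptor, by 0.58 ± 0.14 (adjusted p = 0.0462). Both calls are weak. They were lost without replicate 1, 3 or 4, where PTPN11 was at 0.57 to 0.77 (adjusted p from 0.0585 to 0.158) and JAK2 at 0.51 to 0.54 (adjusted p from 0.157 to 0.167). Without replicate 2 they were at 0.48 and 0.75. JAK2 was at 0.91 on slide 58 and 0.25 on slide 61, and its other 2 tested probes gave 0.21 ± 0.16 and 0.26 ± 0.08, neither called. The other PTPN11 probe was at 0.08 ± 0.05. As the mean of their probes PTPN11 and JAK2 were at 0.35 each (adjusted p = 0.0555 and 0.102). Both also missed the threshold with no background correction (adjusted p = 0.0522 and 0.0576) and with no filter on dim probes (adjusted p = 0.0660 and 0.0672), and JAK2 did with median centring and on slide 61 alone (adjusted p = 0.130 and 0.284). Without replicate 2 the list had 4 genes higher and 2 lower.

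Among 12 tested genes that sense nucleic acid or activate IRFs, 0 were higher and 1 was lower, with 1 and 1 at an unadjusted p under 0.05 in limma and a median of 0.05. The lower gene was LGP2 (now DHX58), an RNA helicase that tunes the response of the RIG-I family of sensors. LGP2 had log2 ratios of -0.61, -0.91, -0.57 and -0.72 in replicates 1 to 4, with a mean of -0.70 ± 0.08 (adjusted p = 0.00728). Without replicate 2 the list had 1 gene higher and 2 lower. In the list of other IRFs and their binding partners 1 of 5 was higher and 0 lower, also 1 and 0 at an unadjusted p under 0.05 in limma. It was NMI, an interferon-inducible STAT interactor, which rose by 0.86 ± 0.13 (adjusted p = 0.0141). That call was lost without replicate 1 or 3, where NMI was at 0.91 and 0.78 (adjusted p = 0.0571 and 0.0629). NMI was at 1.13 on slide 58 and 0.59 on slide 61. The other family members, named after their values were seen, were IRF8 at 0.58 ± 0.25 (adjusted p = 0.168) and IRF4, which was not tested. Without replicate 2 that list had 1 gene higher and 1 lower.

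**Figure D4:**
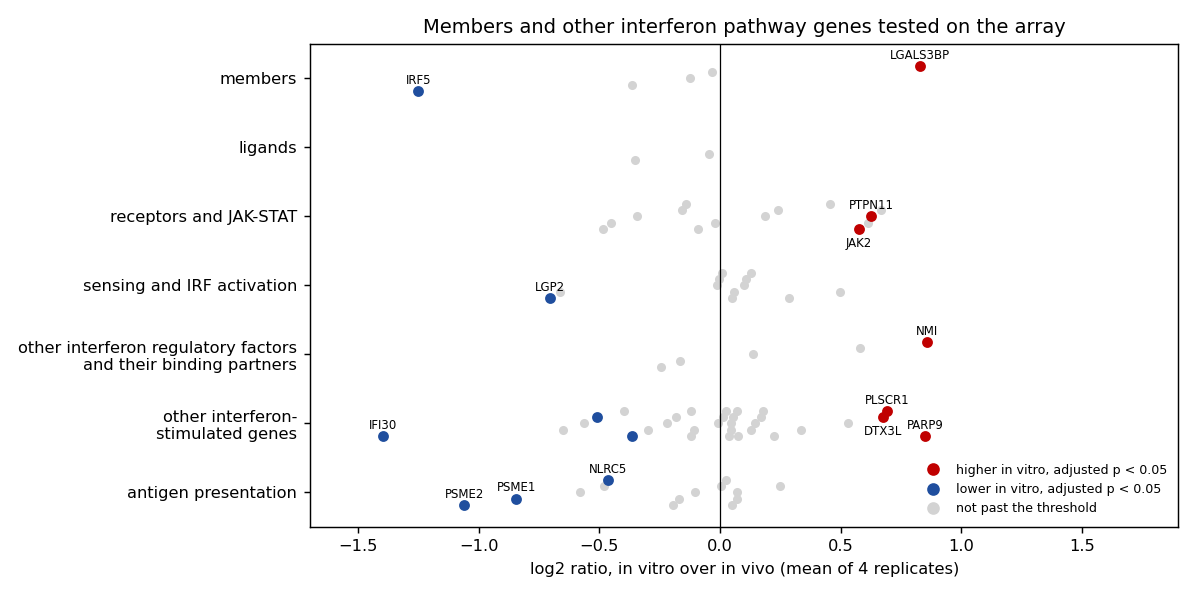
Log2 ratio (x axis, mean of 4 replicates) of every tested gene among the members and in 6 lists of pathway genes, red for genes called higher in vitro, blue for genes called lower and gray for the rest. Called genes lie on both sides of 0, from IFI30 at -1.40 to NMI at 0.86.

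Other interferon-stimulated genes had calls in both directions. Of 31 tested, out of 46 with a probe, 3 were higher and 3 lower, near the 9.23% and 12.6% among all tested genes. The list median log2 ratio was 0.04, and without replicate 2 the counts were 5 and 5. IFI30, a lysosomal thiol reductase induced by interferon gamma, had the largest fall, with replicate ratios of -1.81, -1.12, -1.06 and -1.60 and a mean of -1.40 ± 0.15 (adjusted p = 0.00687). Its other probe gave -1.44 ± 0.12. PARP9 and DTX3L encode partners in one ADP-ribosylation and ubiquitin ligase complex, and both rose, by 0.85 ± 0.07 (adjusted p = 0.00502) and 0.68 ± 0.11 (adjusted p = 0.0179). PARP9 was higher in all 4 replicates, at 0.95, 0.91, 0.69 and 0.84. The DTX3L call was lost without replicate 1 or 3, where it was at 0.71 and 0.63 (adjusted p = 0.0686 and 0.0810). It was also lost on slide 61 alone, where DTX3L was at 0.36 (adjusted p = 0.0630), against 0.99 on slide 58. PLSCR1, a phospholipid scramblase, rose by 0.69 ± 0.17 (adjusted p = 0.0439). That call too was lost without replicate 1, 3 or 4, with ratios of 0.55 to 0.72 and adjusted p from 0.130 to 0.153. PLSCR1 was at 1.02 on slide 58 but 0.36 on slide 61 (adjusted p = 0.171), and at 0.47 as the mean of its probes (adjusted p = 0.236). It also missed the threshold with no background correction, with median centring and with no filter on dim probes (adjusted p = 0.0623, 0.128 and 0.0657).

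The classical antiviral genes beside MX1 showed little signal. MX2 was detected on 8 of 8 arrays in vitro and 4 of 8 in vivo and gave 0.03 ± 0.06 (adjusted p = 0.834). OAS1 of the double-stranded RNA response gave 0.05 ± 0.06 (adjusted p = 0.683), with log2 levels of 7.09 in vitro and 7.05 in vivo. The enzymes that act with ISG15 were named after their values were seen. UBA7, which activates ISG15 for conjugation, fell by 0.36 on the log2 scale (SE 0.09, adjusted p = 0.0463) and was lower in vitro on all 8 arrays. However, UBA7 entered the test through detection on all 8 arrays in only 1 kind of embryo. Where detection in both kinds was required, UBA7 was not tested and the list had 2 lower genes. The UBA7 call was lost without replicate 1, 3 or 4, at -0.42 to -0.36 (adjusted p from 0.0912 to 0.167). UBA7 was at -0.20 on slide 58 alone (adjusted p = 0.154), against -0.53 on slide 61, and at -0.23 with no background correction (adjusted p = 0.0965). When dim probes were kept in the test, the UBA7 call was lost too (adjusted p = 0.0563). HERC5, an ISG15 ligase in human cells, gave -0.30 ± 0.16 (adjusted p = 0.264), with -0.62 on slide 58 (adjusted p = 0.0281) and 0.02 on slide 61. Without replicate 2 HERC5 was at -0.13. TRANK1, the remaining lower gene of the list, was at -0.51 ± 0.05 (adjusted p = 0.00678), and without replicate 4 it was at -0.50 (adjusted p = 0.0502).

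Antigen presentation genes, many of them targets of IRF1 and NLRC5, had 0 of 14 higher and 3 lower, with 0 and 5 at an unadjusted p under 0.05 in limma and a median of -0.14. The shares among all tested genes were 9.23% higher and 12.6% lower, and counts this small were not set apart from them. PSME2 and PSME1 encode the subunits of the proteasome activator induced by interferon gamma. PSME2 was at -1.06 ± 0.07 (adjusted p = 0.00502), with replicate values of -0.89, -1.18, -1.01 and -1.15. PSME1 was at -0.84 ± 0.10 (adjusted p = 0.00772), with replicate values of -0.55, -0.97, -0.81 and -1.04. PSME2 and PSME1 were at -0.76 and -0.53 on slide 58, and at -1.36 and -1.16 on slide 61. NLRC5, the transactivator of class I antigen presentation genes, was at -0.46 ± 0.06 (adjusted p = 0.00899). Without replicate 4 NLRC5 was at -0.43 (adjusted p = 0.0582). Without replicate 2 the list had 0 genes higher and 5 lower.

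**Figure D5:**
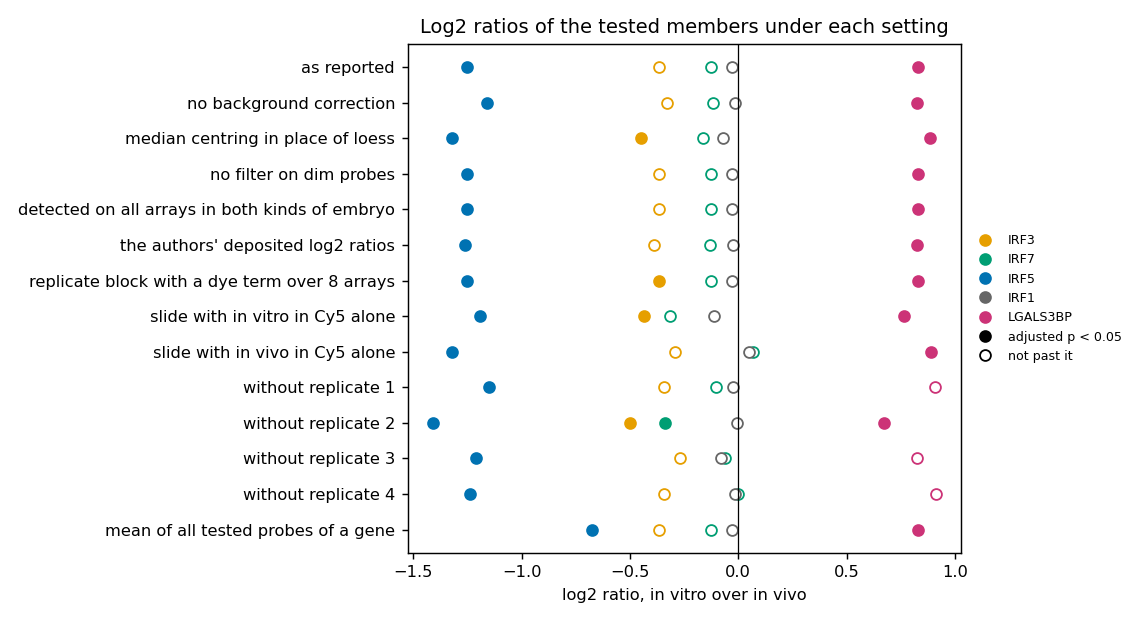
Log2 ratio (x axis) of the 5 tested members as reported and under each other setting (rows), with filled points at an adjusted p under 0.05 and open points otherwise. IRF5 passes under every setting shown, LGALS3BP passes except without replicate 1, 3 or 4, IRF3 passes under 4 of the 13 other settings and IRF7 under 1.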

How the data were processed

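The authors deposited 1 scanner table per array, whose intensity columns are headed as raw and as background for either dye, per the file headers, and a table of processed log2 ratios made by a normalization that the labels and headers do not name. Deposited columns correlated at 0.988 to 1.00 with log2 in vitro over in vivo from the scanner values, and their medians were -0.00385 to 0.00131. RNA was extracted with PicoPure, amplified and ULS-labelled, per the labels' protocols.

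The software was R 4.3.3 with limma 3.58.1, and for the figures matplotlib 3.10.9 in Python 3.11.15. Background was removed with normexp at an offset of 50, and a loess curve was fitted within each array, where the 1425 control spots had weight 0. Levels are per channel after a further quantile step on average intensity. Detection used 153 negative control spots. Of the probes, 24775 (56.6%) were tested. The 2 arrays of a replicate number hold the same pair of extracts in swapped dyes: deviations from the slide mean correlated at 0.703 to 0.894 within a number and at most 0.149 between numbers. They were averaged, giving n = 4. The test was lmFit on the intercept with eBayes (prior df 2.01), two-sided, Benjamini-Hochberg adjusted. It was tested on simulated data. The brightest tested probe stood for a gene.

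The members and gene lists were chosen with earlier results of these data known. Named were all members and their probes, the called genes of each list (the 4 largest changes where over 5 were called), a core of pathway genes, the brightest marker of each tissue examined beside IRF5, and the 3 genes most like each called member. Lists were ligands, receptors and JAK-STAT, sensing, other IRFs and partners, other interferon-stimulated genes, antigen presentation, and markers of trophectoderm, inner cell mass, blood and immune cells, oviduct and uterus, and cumulus. Of the array's 15229 symbols 14141 are current names in RefSeq's ARS-UCD2.0 table and 1049 are synonyms there. As no build is named in the files, genome positions are left out. Alternatives were no background correction, median centring, other filters, the deposited log2 ratios, the replicate block with a dye term, single slides, the mean of a gene's probes and leaving out each replicate.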

Additional observations from a re-analysis of the deposited data

How the results depend on the processing

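Among the members, IRF5 stayed called as lower in all 13 alternatives, between -1.41 and -0.68 (adjusted p up to 0.0450). LGALS3BP stayed called as higher in 10 of 13. IRF3 became called with median centring (-0.45, adjusted p = 0.0382), on slide 58 alone (-0.44, adjusted p = 0.0341), in the replicate block and without replicate 2. The count of members lower in vitro was therefore 2 with median centring, 2 with the replicate block and 2 on slide 58, and 1 to 3 when 1 replicate was left out, the 3 being without replicate 2. The count higher was 0 to 1 when 1 replicate was left out. Ratios changed sign on slide 61 alone for IRF7 (0.0657), IRF1 (0.0480), OAS1 (-0.0110), HERC5 (0.0233) and IFNAC (0.310), and on slide 58 for MX2 (-0.0982). Leaving out 1 replicate gave -0.336 to 0.000803 for IRF7 and -0.00159 to 0.071 for MX2, the lowest IRF7 and highest MX2 value being without replicate 2 and the sign changes without replicate 4. Over all genes, 940 were higher and 1285 lower. Leaving out 1 replicate gave 282 to 1626 higher and 357 to 2063 lower, the largest counts being without replicate 2, and slide 58 alone gave 1491 higher. With no filter on dim probes, IRF2 (0.03), IRF9 (-0.13), ISG15 (-0.02) and MX1 (0.02) entered the test, and limma called none (adjusted p from 0.408 to 0.886). The replicate block, at a correlation of 0.834, takes its degrees of freedom from 8 arrays although there are 4 replicates, and apart from IRF3 it changed no member's call. The pathway lists were put through the same alternatives after the data were seen. Their counts ranged over all settings from 1 to 6 higher and 1 to 6 lower for other interferon-stimulated genes, 0 to 4 and 0 to 2 for receptors and JAK-STAT, 0 to 1 and 1 to 3 for sensing, 0 to 2 and 0 to 1 for other IRFs and partners, 0 to 1 and 0 to 1 for ligands, and 0 and 2 to 5 for antigen presentation. Where a call changed, the cause was not tested. Signal over background limits IRF1, IRF2, IRF3, IRF9, ISG15, MX1 and IRF5 on EMBV3_36576.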
